A study of Mus musculus with 15 samples.

Results

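The cytosolic ribosomal protein genes were taken as the genes of the smaller deposited count table (mean of at least 10 counts per library) whose symbol is that of a ribosomal protein of the large (Rpl) or small (Rps) subunit. Processed pseudogenes and the S6 kinase genes were left out. The rule found 81 of the table's 16610 genes. Of these, 44 are canonical large-subunit genes, 30 are canonical small-subunit genes and 5 are paralogues (Rpl3l, Rpl22l1, Rps27l, Rps4l and Rpl37rt). The other 2 carry such a symbol but encode no ribosomal protein: Rpl7l1 is a nucleolar assembly factor, and Rps19bp1 is a protein that binds Rps19.

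Ribosomal proteins are made in the cytoplasm, imported into the nucleus and assembled there with ribosomal RNA into the large and small subunits. Their messenger RNAs are short, abundant and often start with a pyrimidine tract at the cap, through which growth signals set their translation. In striated muscle Rpl3l, a paralogue of the large-subunit protein Rpl3, is made in place of part or all of Rpl3.

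Nuclei of mouse ventricular muscle had been sorted for Pcm1, a centriolar satellite protein used as a cardiomyocyte mark, and their RNA was freed of ribosomal RNA and sequenced with strand kept. The 4 label groups were compared: females labelled Pgr knockout (n = 4), females labelled Pgr wild type (n = 3), males labelled Pgr knockout (n = 4) and males labelled Pgr wild type (n = 4). Pgr encodes the progesterone receptor, and the study asks about its part in heart muscle cells of each sex. No label gives the ages, says whether the deletion is limited to a cell type, or says that replicates are separate animals, so each p-value measures the spread between these samples, which may be technical.

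Total counts were 24.4 to 139.4 M per library, and members took 0.0515% to 0.102% of them. Pgr stood against the labels, at 6.10 to 12.5 CPM (counts per M of scaled library size) in the 8 libraries labelled knockout and at 0 to 0.267 CPM in the 7 labelled wild type, so the groups are named by label throughout. The cardiomyocyte marker list summed to 43617 to 73447 CPM, with its lowest sum in replicate 2 of the females labelled knockout. Endothelial (7 genes) and fibroblast (7 genes) markers split the libraries: they summed to 179 to 317 and 370 to 1060 CPM in 6 libraries with the endothelial gene Pecam1 at 20 CPM or more, against 13.1 to 44.1 and 35.0 to 144 CPM in the other 9. The 6 are replicates 1 and 2 of both knockout-labelled groups and replicate 1 of both wild-type-labelled groups. Leukocyte markers (8 genes, 7 tested) summed to 23.6 to 50.5 CPM in those 6 and 4.58 to 16.4 CPM in the 9, with Ptprc at 4.41 to 13.7 and 0.637 to 4.74 CPM. Mural markers (6 genes) summed to 481 to 572 and 485 to 630 CPM. Even so, 4 of the 6 mural genes lay wholly above in the marker-rich libraries, beside 13.6% of all tested genes. Among them was Rgs5, at 29.1 to 80.9 against 6.22 to 13.4 CPM. Skeletal muscle markers (4 genes, 2 tested) summed to 118 to 325 and 116 to 312 CPM, and Ckm and Acta1 of that list are also cardiac. Reads of genes of the other sex reached 3.07% of the level in that sex in replicate 2 of the females labelled knockout, 3.07% in replicate 2 of the females labelled wild type and 3.50% in replicate 2 of the males labelled wild type. They were at most 0.254% in the other 12 libraries.

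The RefSeq start regions (GRCm38.p6) of 60 members were at hand, and 8 are shown because they differ in pyrimidine runs near the start and belong to members whose values follow. Each window runs from 30 bases before the annotated start to 15 bases from it, on the gene's strand, and capitals mark the longest run of at least 6 C or T within 15 bases of the start.
Rpl7a (chr2:26910777-26910821, plus): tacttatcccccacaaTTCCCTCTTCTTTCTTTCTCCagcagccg
Rps18 (chr17:33955651-33955695, minus): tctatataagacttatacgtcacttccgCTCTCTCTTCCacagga
Rpl22l1 (chr3:28805478-28805522, plus): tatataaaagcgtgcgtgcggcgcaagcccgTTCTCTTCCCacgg
Rpl37 (chr15:5116583-5116627, plus): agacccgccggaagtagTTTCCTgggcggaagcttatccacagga
Rps2 (chr17:24720033-24720077, plus): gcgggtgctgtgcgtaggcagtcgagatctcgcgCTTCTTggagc
Rpl35a (chr16:33056423-33056467, plus): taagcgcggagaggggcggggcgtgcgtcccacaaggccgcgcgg
Rpl9 (chr5:65391417-65391461, minus): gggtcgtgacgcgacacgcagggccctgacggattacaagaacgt
Rpl3l (chr17:24727796-24727840, plus): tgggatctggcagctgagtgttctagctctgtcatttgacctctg
The run was 21 bases in Rpl7a, 11 in Rps18, 10 in Rpl22l1 and 6 in Rpl37 and Rps2. Runs were sought on either side of the start, so a run need not be a tract at the cap. In Rpl37 it lies wholly before the annotated start. In Rpl35a, Rpl9 and Rpl3l the longest pyrimidine runs near the start were 4, 4 and 5 bases, so no capitals appear. A run of at least 6 was found in 30 of the 54 canonical members with a start region (55.6%), beside 28.7% of the 20595 genes with one. The letters CCGGAAG, on either strand within 250 bases before to 50 after the start, were found in 22 of the 54 (40.7%), beside 10.998% of all. The annotated starts and the start of the count table's gene lie within 10 bases of each other in 15 of the 54. Of the 8 shown, the distance was 1947 bases in Rps2, 336 in Rps18, 72 in Rpl22l1, 43 in Rpl7a and 32 in Rpl37. It was 13 in Rpl9, 6 in Rpl3l and 0 in Rpl35a.

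All levels are counts over whole gene bodies, introns included, and levels of different genes are set side by side per kilobase of gene body. On that scale Rpl3l was the highest of the 81 members at 10.9 CPM per kb. Its canonical counterpart Rpl3, which lies near the catalytic centre of the large subunit, was at 0.874 CPM per kb. The Rpl3 span is long at 14078 bases, of which 22.6% is annotated exon. Before division by length Rpl3 was at 12.3 CPM, beside a median of 6.90 CPM over the 74 canonical members. The 74 canonical members ranged from 0.101 to 6.46 CPM per kb with a median of 2.15. The highest large-subunit genes were Rplp1 at 6.46, which encodes a stalk protein that recruits elongation factors, Rpl10 at 5.53, a late-joining protein at the subunit interface, and Rpl41 at 5.29 CPM per kb, which encodes a very small peptide. The highest small-subunit genes were Rps27 at 6.29, Rps9 at 4.85 and Rps29 at 4.49 CPM per kb.

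The lowest large-subunit members were Rpl13a at 0.101 and Rpl11 at 0.323 CPM per kb, and the lowest small-subunit members were Rps14 at 0.597 and Rps28 at 1.05 CPM per kb. Rpl11, which binds the p53 regulator Mdm2 when assembly fails, and Rps14 have long annotated spans of 25164 and 31449 bases. Other rows of the table on the same strand cover 88.6% of the Rpl13a span, and the mean count of Rpl13a was 17.5, just inside the threshold, followed by Rps4l at 35.3. Just outside it were the paralogue Rps3a2 at 8.73 counts and Rpl36al at 3.60. Of the 77 canonical genes, 3 were left out: Rpl13 and Rpl24 with 0 reads and Rps10 with a mean of 0.333. Their spans are covered by other rows on the same strand over 100%, 98.7% and 76.9%, and the part of this overlap in their values was not tested. Paralogue reads can also be split with their parent copies, and the 300 named pseudogene rows hold 6836 reads, or 1.12% of the 608029 on members.

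**Figure D1:**
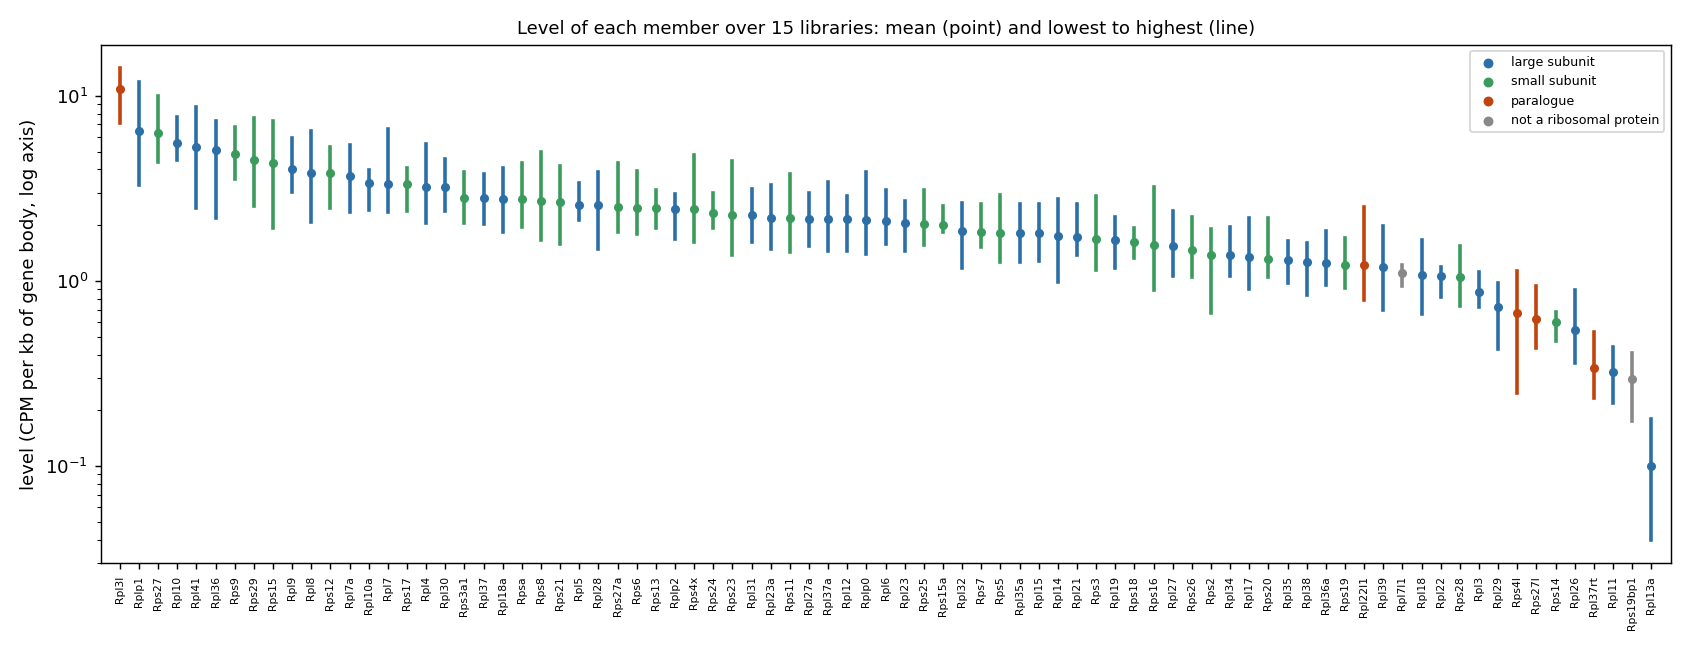
Level of each of the 81 members in CPM per kb of gene body (log axis), with the mean over 15 libraries as a point and the lowest to the highest library as a line, coloured by class. Rpl3l stands at 10.9 CPM per kb on the left, and Rpl13a at 0.101 on the right.

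Most canonical members shared their high and their low libraries. Of the 74, 43 had their highest level in replicate 2 of the females labelled knockout and 20 in replicate 2 of the males labelled knockout. The lowest level fell in replicate 2 of the males labelled wild type for 40 and in replicate 3 of the females labelled knockout for 19. The ratio of the highest to the lowest library had a median of 2.12 over the 74 members and a range of 1.39 to 4.48. Large-subunit and small-subunit genes kept close proportions, with a ratio of summed CPM between 1.22 and 1.34 in every library.

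**Figure D2:**
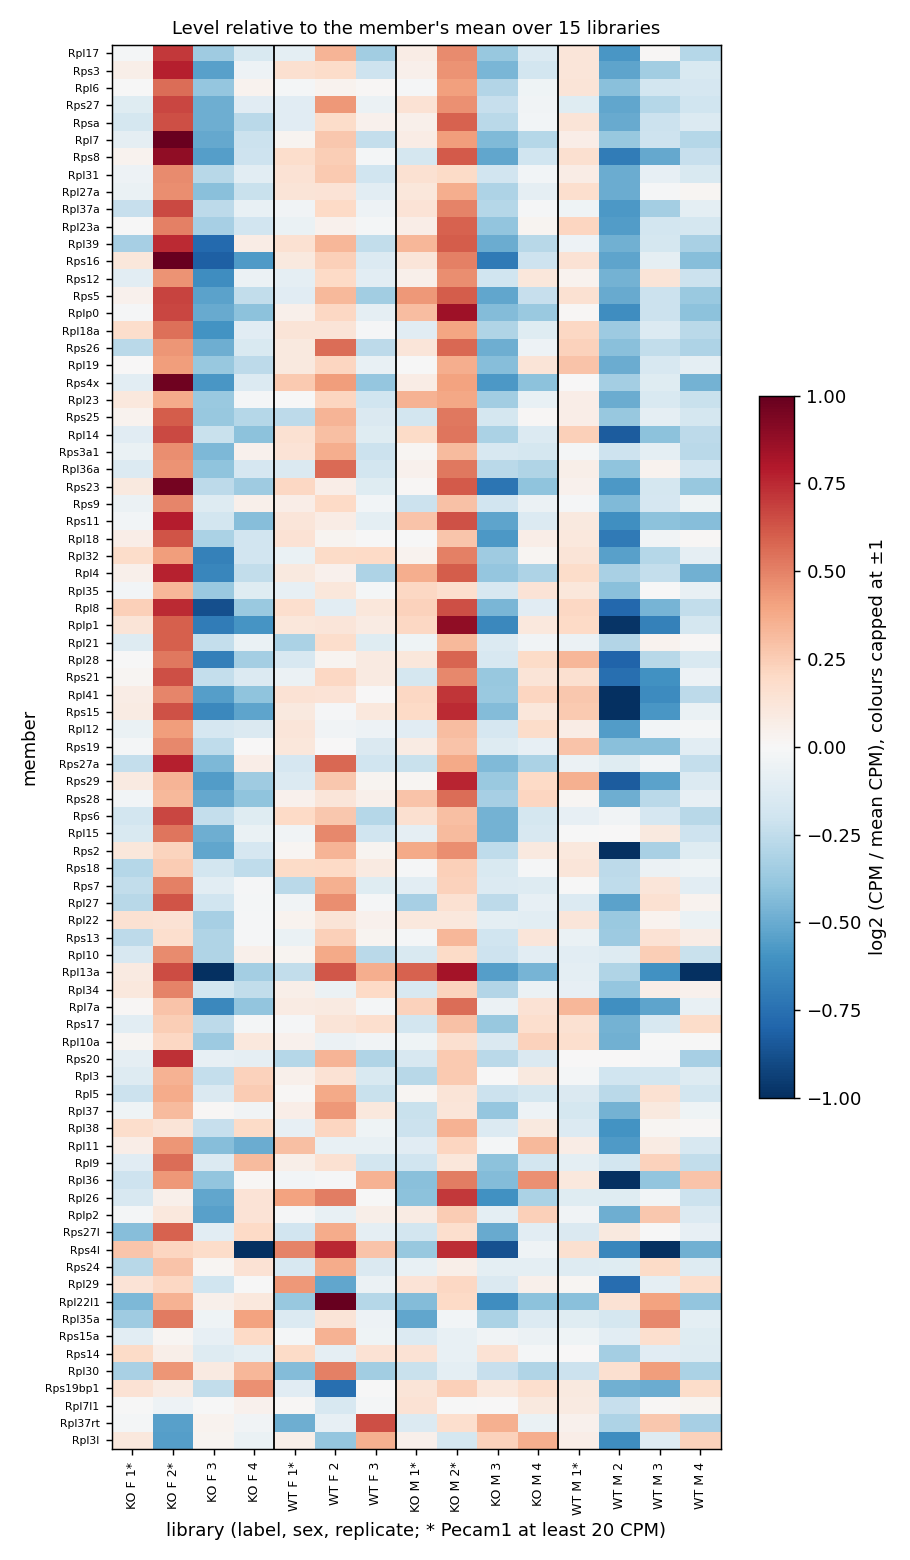
Level of each member (rows) in each library (columns) as log2 of its CPM over its mean. Rows are ordered by the correlation over the 15 libraries of their log2 CPM with that of the summed other canonical members. Replicate 2 of both knockout-labelled groups is high and replicate 2 of the males labelled wild type is low over most rows, while the bottom rows, among them Rpl3l, Rpl37rt and Rpl30, run otherwise.

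Summed over the 74 canonical members, the level was 579, 846, 476 and 574 CPM in the female libraries labelled knockout, against 610, 697 and 567 CPM in those labelled wild type. It was 611, 770, 501 and 580 CPM in the male libraries labelled knockout, against 622, 455, 570 and 536 CPM in those labelled wild type. The ranges overlapped in both sexes and between the sexes. Group means were 619 ± 159 (SD, n = 4) in females labelled knockout and 625 ± 65.9 (n = 3) in females labelled wild type, and 615 ± 113 (n = 4) in males labelled knockout and 546 ± 70.3 CPM (n = 4) in males labelled wild type. In these libraries of sorted nuclei, a different share of cell types and a different amount of RNA per nucleus cannot be told apart.

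The libraries with the highest sums also held many mitochondrial counts, which come from outside the nucleus. Mitochondrial counts were 1.12% of the total in replicate 2 of the males labelled knockout and 0.918% in replicate 2 of the females labelled knockout, against 0.254% to 0.796% in the other 13. The 6 libraries with high endothelial and fibroblast markers had summed canonical levels of 579 to 846 CPM, and the 9 others 455 to 697 CPM. Their means were 673 ± 108 CPM (SD, n = 6) and 551 ± 71.4 CPM (n = 9). Most members had a higher mean level in the marker-rich libraries, while Rpl3l, Rpl30 and a few others had a lower one. The part of these measures in the summed level was not tested. Of the 81 members, 2 lay above all 9 in all 6 marker-rich libraries (2.47%), beside 13.6% of all tested genes, and 0 lay below, beside 1.08%. These were Rpl4, a large-subunit protein that lines the exit tunnel, and Rpl8, which sits near the catalytic centre.

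**Figure D3:**
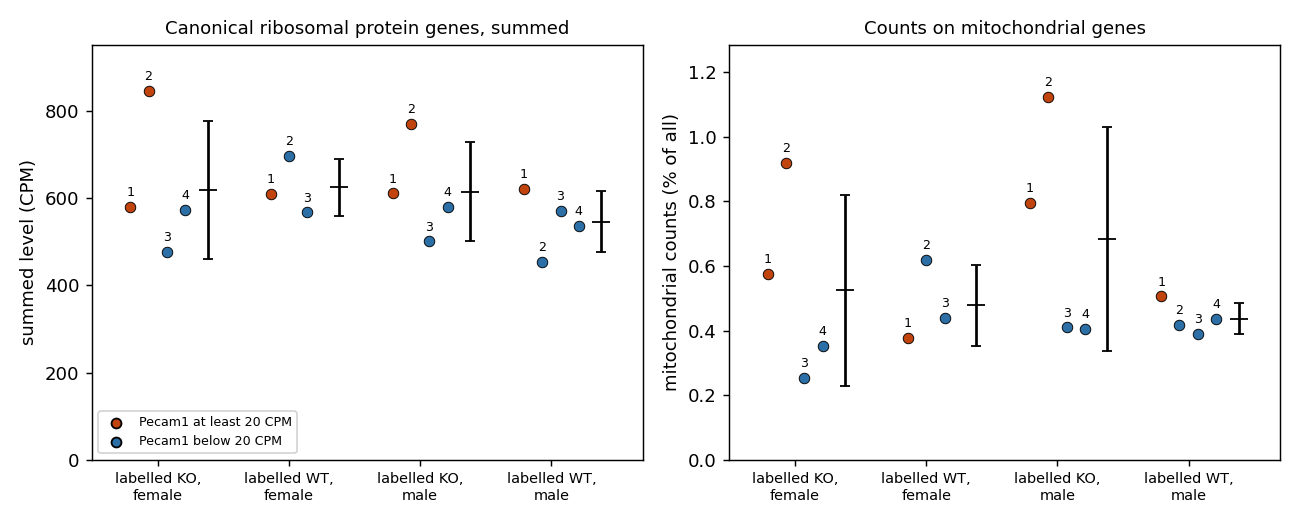
Summed CPM of the 74 canonical members (left) and the percentage of counts on mitochondrial genes (right) in each library, numbered by replicate, with mean and SD per group and colour for Pecam1 level. Replicate 2 of the females and of the males labelled knockout are highest in the left panel at 846 and 770 CPM, and they are also the 2 highest in the right panel at 0.918% and 1.12%.

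No member passed the adjusted p of 0.05 (edgeR quasi-likelihood test, Benjamini-Hochberg over 17455 genes) in any of the 5 comparisons, and none did under DESeq2 or limma-voom. Between the labels in females, 0 of 81 members were called, beside 0% of all tested genes, and 0 had an unadjusted p below 0.05, beside 1.74%. The log2 fold changes (females labelled knockout over females labelled wild type) had a median of -0.02 over the members and 0.03 over all tested genes, with 38 members higher (46.9%) and 43 lower, beside 55.4% higher among all tested genes. Without replicate 2 of the females labelled knockout the members' median was -0.22. Among the marker-poor libraries (2 labelled knockout and 2 labelled wild type) it was -0.30, with 0 members called, beside 0 of all 16652 genes tested there. Among the marker-rich ones (2 and 1) it was 0.26.

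No member had all libraries of the females labelled knockout above those labelled wild type (0.905% of all tested genes did), and Rps4l, described with the paralogues, had all of them below. Rps18, a small-subunit protein at the subunit interface, was at 5.34, 7.73, 5.71 and 5.45 CPM in females labelled knockout, against 7.42, 7.44 and 6.92 CPM in females labelled wild type (log2 fold change -0.26 ± 0.15 SE, edgeR adjusted p = 1). Replicate 2 of the females labelled knockout was the single library of that group within or above the range of the females labelled wild type. Rpl26, a large-subunit protein, was at 2.63, 3.04, 2.05 and 3.22 CPM in females labelled knockout, against 3.88, 4.20 and 2.93 CPM in females labelled wild type (-0.42 ± 0.28). The groups overlapped. Rps20 (0.21 ± 0.23) and Rpl9 (0.17 ± 0.19), a small- and a large-subunit gene, had positive values, as did Rps19bp1 (0.38 ± 0.26). Rps20 was at 5.34, 9.43, 5.38 and 5.34 CPM in females labelled knockout, against 4.66, 7.21 and 4.62 CPM in females labelled wild type, so that replicate 2 was highest under both labels.

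Between the labels in males, 0 of 81 members were called, beside 0.0115% of all tested genes, and 0 had an unadjusted p below 0.05, beside 1.42%. The median log2 fold change was 0.19 over the members and 0.02 over all tested genes. Of the members, 70 were higher and 11 lower, beside 53.0% higher among all tested genes. Without replicate 2 of the males labelled knockout the median was 0.07, and without replicate 2 of the males labelled wild type 0.09. Among the marker-poor libraries it was 0.08. Rps2, a small-subunit protein near the messenger RNA entry site, was at 6.84, 7.28, 4.42 and 5.64 CPM in males labelled knockout, against 5.65, 2.56, 4.20 and 4.84 CPM in males labelled wild type (0.48 ± 0.24, adjusted p = 0.999). Rpl41 was at 7.29, 10.3, 4.88 and 7.30 CPM in males labelled knockout, against 7.62, 2.96, 4.08 and 5.27 CPM in males labelled wild type (0.58 ± 0.30). In both genes replicate 2 was the highest library under the knockout label and the lowest under the wild-type label.

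Rps28, a small protein of the small subunit, had a log2 fold change of 0.41 ± 0.21 between the labels in males. The negative side held Rpl35a (-0.28 ± 0.20), Rpl30 (-0.25 ± 0.23) and the paralogue Rpl22l1 (-0.26 ± 0.33). Rpl35a, mutated in some people with Diamond-Blackfan anaemia, was at 4.75, 6.66, 5.46 and 6.17 CPM in males labelled knockout, against 6.23, 6.02, 9.46 and 6.36 CPM in males labelled wild type. Replicate 3 of the males labelled wild type stood apart. Without it the log2 fold changes were -0.11 for Rpl35a, -0.11 for Rpl30 and -0.09 for Rpl22l1. That of Rps2 was 0.29 without replicate 2 of the males labelled wild type, and those of Rpl41 and Rps28 were 0.38 and 0.27 without replicate 2 of the males labelled knockout. No member had groups that did not overlap, beside 0.756% above and 0.842% below among all tested genes.

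The label effect in females minus that in males was negative for 70 of 81 members, with a median of -0.20, beside 0.02 over all tested genes. Of all tested genes 52.2% were positive. None of the members was called, beside 0% of all tested genes, and 0 had an unadjusted p below 0.05, beside 2.49%. The values furthest by p were -0.68 ± 0.35 for Rps2, -0.59 ± 0.31 for Rps28 and -0.60 ± 0.34 for Rpl7a, a large-subunit protein, and 0.47 ± 0.30 for Rpl35a, 0.44 ± 0.33 for Rpl30 and 0.27 ± 0.26 for Rpl9 on the positive side. The median was -0.39 without replicate 2 of the females labelled knockout (4 members higher and 77 lower) and -0.07 without replicate 2 of the males labelled knockout (30 higher and 51 lower). It was -0.12 without replicate 3 of the females labelled knockout and -0.13 without replicate 2 of the males labelled wild type. Among the marker-poor libraries it was -0.31, and among the marker-rich ones 0.06, with 51 members higher and 30 lower. This comparison uses the same libraries as the separate label comparisons.

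Between the sexes under the knockout label, 0 of 81 members were called, beside 0.0229% of all tested genes, and 0 had an unadjusted p below 0.05, beside 6.37%. The median (females over males) was -0.03 over the members and 0.01 over all tested genes, with 35 higher (43.2%) and 46 lower, beside 52.0% higher among all tested genes. The median was -0.18 without replicate 2 of the females and 0.13 without replicate 2 of the males. Rpl9 was at 11.4, 18.2, 11.2 and 15.3 CPM in females labelled knockout, against 10.8, 13.3, 9.30 and 10.9 CPM in males labelled knockout (0.34 ± 0.17, adjusted p = 0.757). Rpl35a (0.41 ± 0.20) and Rpl30 (0.38 ± 0.23) were the next on that side. Rpl7a (-0.38 ± 0.23), Rps28 (-0.33 ± 0.21) and Rpl3l (-0.23 ± 0.21) led the other side. With the replicate block, Rpl7a had -0.40 (edgeR adjusted p = 0.411) and Rps28 -0.33 (adjusted p = 0.461), and 0 members were called, beside 13 of all tested genes. No member had groups that did not overlap, beside 1.26% above and 1.92% below among all tested genes.

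Between the sexes under the wild-type label, 0 of 81 members were called, beside 0% of all tested genes. The median (females over males) was 0.20 over the members and -0.003 over all tested genes. Of the members, 76 were higher and 5 lower, beside 49.3% higher among all tested genes. Without the 3 libraries that held reads of the other sex the median was 0.04. It was 0.30 among the marker-poor libraries (2 female and 3 male), with 77 members higher and 4 lower and 0 called, beside 1 of all 16652 genes tested there. In that fit 11 members had an edgeR unadjusted p below 0.05, and the share of all tested genes was not taken. Among the marker-rich ones, 1 female and 1 male library, the median was -0.03. Rpl37 was at 7.34, 9.46 and 7.52 CPM in females labelled wild type, against 6.20, 5.05, 7.50 and 6.79 CPM in males labelled wild type (0.34 ± 0.17, adjusted p = 0.9999). Rps14, which sits at the platform of the small subunit, had 0.23 ± 0.12. The lower side was near 0, with -0.12 ± 0.26 for Rps19bp1, -0.07 ± 0.25 for Rpl30 and -0.03 ± 0.10 for Rpl7l1.

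In 4 of the 81 members the females labelled wild type lay wholly above the males labelled wild type (Rps27, Rps28, Rpl26 and Rps4l), beside 1.06% of all tested genes. None lay wholly below, beside 1.89%. Rps27 was at 6.56, 9.62 and 6.82 CPM in those females, against 6.53, 4.96, 5.82 and 6.18 CPM in those males (0.38 ± 0.25, adjusted p = 0.9999). The gap between the lowest female and the highest male library was small beside the spread within the females. Of the 4 canonical members on the X chromosome, Rps4x had a female over male log2 fold change of 0.23 ± 0.31 under the knockout label and 0.36 ± 0.34 under the wild-type label. Those of Rpl10 were 0.11 ± 0.18 under the knockout label and 0.11 ± 0.20 under the wild-type label. Rpl36a had -0.07 ± 0.25 under the knockout label and 0.23 ± 0.27 under the wild-type label, and Rpl39 had -0.07 ± 0.31 and 0.35 ± 0.33 in the same order. None was called.

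**Figure D4:**
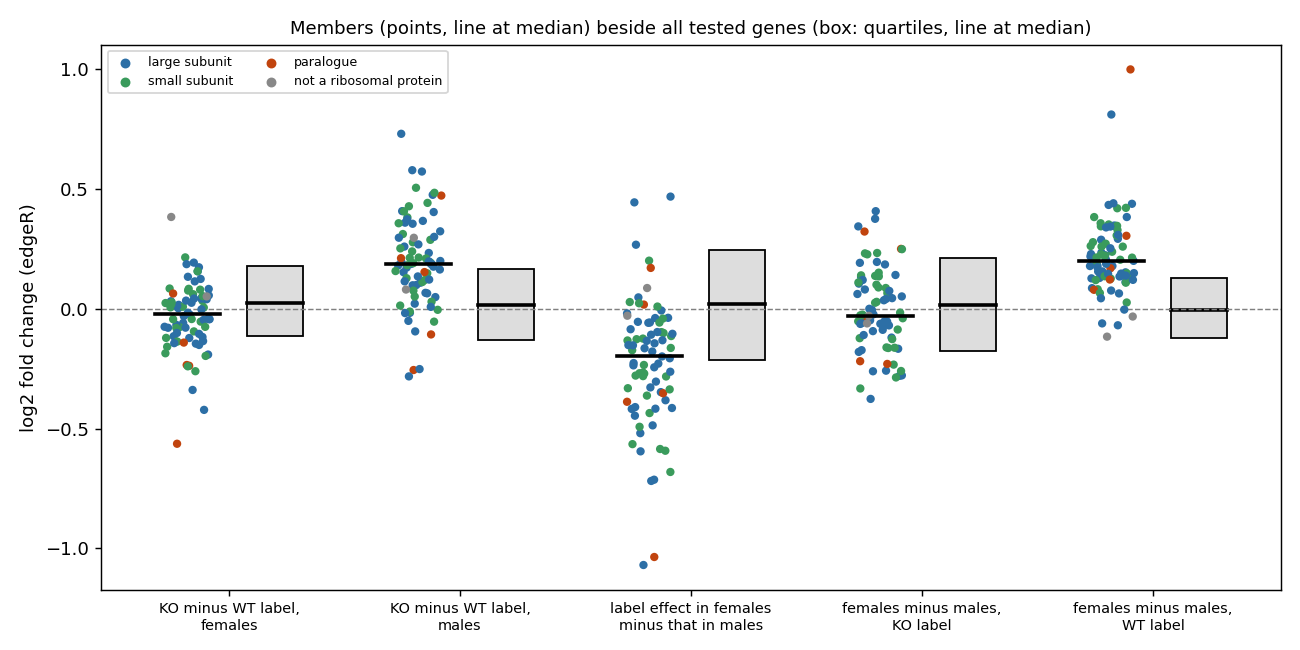
Log2 fold change of each of the 81 members in the 5 comparisons (points, line at the median), beside the quartiles and median of the 17455 tested genes (box). The members' medians are -0.02, 0.19, -0.20, -0.03 and 0.20 from left to right, and no point was called.

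Among the paralogues, Rpl3l held most of the reads. It was at 98.1, 62.3, 93.1 and 87.2 CPM in females labelled knockout, against 95.1, 69.9 and 117 CPM in females labelled wild type. It was at 94.4, 80.7, 107 and 117 CPM in males labelled knockout, against 95.4, 59.2, 83.5 and 107 CPM in males labelled wild type. Replicate 2 was the lowest library of each of the 4 groups, and these 4 were the lowest of all 15. The 3 libraries with 3.07% to 3.50% of other-sex reads are among these 4. The remaining one, replicate 2 of the males labelled knockout, had the highest mitochondrial share (1.12%). The part of either in the level of Rpl3l was not tested. The log2 fold changes between labels were -0.14 ± 0.22 in females and 0.21 ± 0.21 in males, and neither was called.

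Rpl3 was at 11.3, 15.7, 10.5 and 14.4 CPM in females labelled knockout, against 12.7, 13.6 and 11.1 CPM in females labelled wild type. It was at 10.1, 14.8, 12.3 and 13.2 CPM in males labelled knockout, against 12.1, 10.7, 10.8 and 11.3 CPM in males labelled wild type. In 3 of the 4 groups replicate 2 was the highest library for Rpl3, the reverse of its place for Rpl3l, and in males labelled wild type it was the lowest. The fold changes between labels were 0.06 ± 0.16 in females and 0.16 ± 0.15 in males.

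Rpl3l had 3.97 to 10.5 times the counts of Rpl3 in single libraries. Per kb of annotated span (8324 bases for Rpl3l and 14078 for Rpl3) this was 6.71 to 17.8 times. The count ratio averaged 6.90 ± 2.35 in females labelled knockout (n = 4) and 7.70 ± 2.70 in females labelled wild type (n = 3). In males it averaged 8.10 ± 1.78 under the knockout label and 7.64 ± 1.64 under the wild-type label (n = 4 each). The ratio was 3.97 and 5.46 in replicate 2 of the females and males labelled knockout and 5.14 and 5.50 in replicate 2 of the females and males labelled wild type, the 4 lowest values of the 15. The log2 ratio differed by -0.17 between labels in females and by 0.08 in males, both with an exact permutation p = 0.657 (two-sided, adjusted p = 0.876 over 4 pairs). Females minus males differed by -0.27 under the knockout label (exact p = 0.486, adjusted p = 0.876), or -0.030 without replicate 2 of the females, -0.41 and -0.42 without replicates 1 and 3 of the females and -0.45 without replicate 2 of the males, and by -0.02 under the wild-type label (exact p = 0.886, adjusted p = 0.886). The smallest p these designs allow is 0.0286.

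The ratio overlapped between libraries rich and poor in endothelial and fibroblast markers. It was 3.97 to 9.30 in the 6 marker-rich libraries and 5.14 to 10.5 in the other 9. Eef1a1 and Eef1a2, the general and the muscle and neuron form of the elongation factor that brings transfer RNA to the ribosome, were set beside it after their values were seen. Eef1a1 was at 34.2 to 86.2 CPM in the marker-rich libraries and at 6.97 to 16.4 CPM in the others, with no overlap. Of all tested genes, 13.6% lay wholly above in the same split. Eef1a2 was at 63.9 to 108 and 71.1 to 113 CPM.

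**Figure D5:**
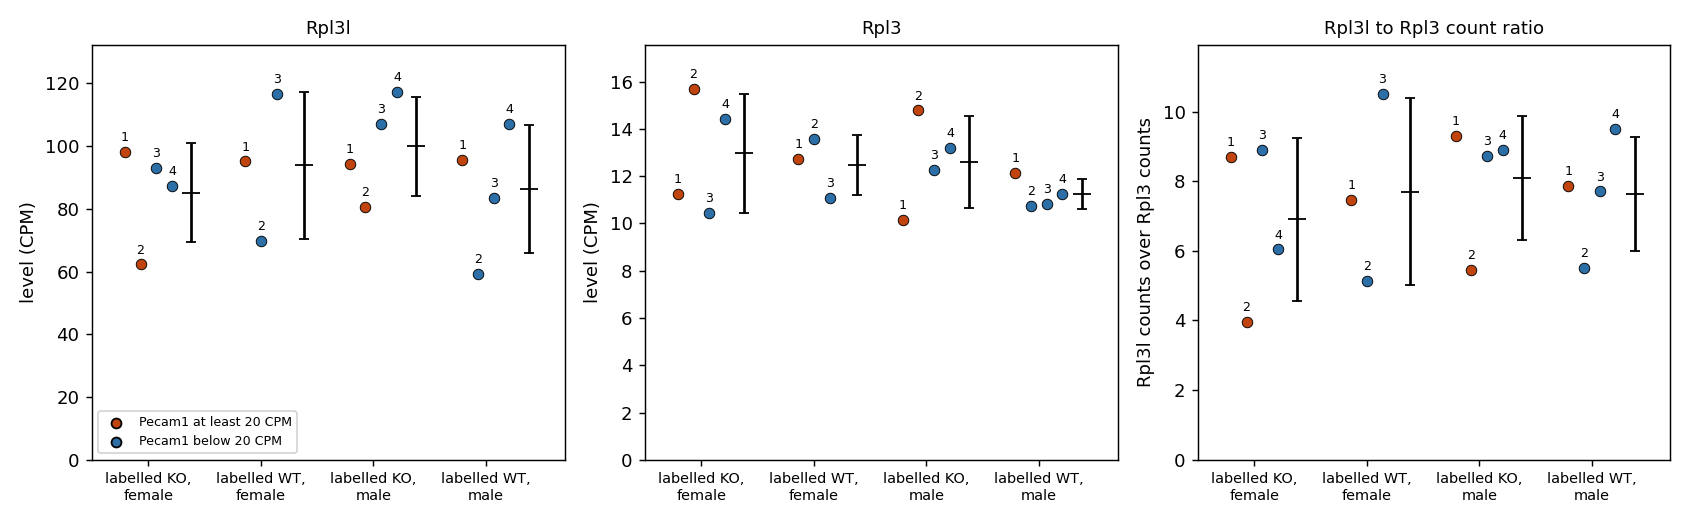
CPM of Rpl3l (left) and of Rpl3 (middle) and the ratio of their counts (right) in each library, numbered by replicate, with mean and SD per group and colour for Pecam1 level. Replicate 2 is lowest for Rpl3l in each group, at 62.3, 69.9, 80.7 and 59.2 CPM from left to right, and the ratio ranges from 3.97 to 10.5.

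The other paralogues were lower. Rpl22l1, which stands in for Rpl22, was at 1.78, 3.09, 2.51 and 2.61 CPM in females labelled knockout, against 1.86, 4.999 and 1.99 CPM in females labelled wild type. It was at 1.79, 2.78, 1.57 and 1.83 CPM in males labelled knockout, against 1.82, 2.68, 3.21 and 1.85 CPM in males labelled wild type. Its highest library, replicate 2 of the females labelled wild type, was 3.18 times its lowest. Rps27l, a paralogue of Rps27, ranged from 1.49 to 3.20 CPM, and Rpl37rt, a retrotransposed copy of Rpl37, from 1.72 to 3.91 CPM.

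Rps4l, a copy of the X-linked gene Rps4x on an autosome, had the largest ratio of the highest to the lowest library among the 81 members (4.58), at 0.233 to 1.07 CPM. It was at 0.768, 0.735, 0.717 and 0.233 CPM in females labelled knockout, against 0.893, 1.07 and 0.771 CPM in females labelled wild type (-0.56 ± 0.46). The knockout-labelled libraries all lay below, beside 1.01% of all tested genes below without overlap. The gap was very small, from 0.768 CPM in replicate 1 labelled knockout to 0.771 CPM in replicate 3 labelled wild type. In these 2 libraries 3 counts equal 0.0606 and 0.0564 CPM. In males Rps4l was at 0.486, 1.06, 0.346 and 0.612 CPM under the knockout label, against 0.706, 0.403, 0.236 and 0.454 CPM under the wild-type label. Females over males under the wild-type label gave 0.9996 ± 0.46. In the main fit this held the one edgeR unadjusted p below 0.05 among members (0.0494, adjusted p = 0.9999), beside 2.09% of all tested genes. It rests on 10 to 84 counts per library. At the other end, Rpl7l1 was the steadiest member, at 8.28 to 10.7 CPM, a ratio of 1.30 between its highest and lowest library.

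Rpl30, a large-subunit protein that in yeast represses the splicing of its own transcript, ran apart from most canonical members. Its log2 CPM correlated with that of the summed other canonical members by 0.230 over the 15 libraries. Rps14 (0.268), Rps15a (0.280), Rpl35a (0.379) and Rpl29 (0.451) also had low values, so this was not particular to Rpl30. Rpl30 was at 8.04, 13.7, 10.7 and 12.6 CPM in females labelled knockout, against 7.46, 14.3 and 7.90 CPM in females labelled wild type. It was at 8.63, 9.38, 8.57 and 8.18 CPM in males labelled knockout, against 8.68, 11.2, 13.4 and 8.08 CPM in males labelled wild type. Replicate 2 of the males labelled wild type, the lowest library for 40 of the 74, was above the median for Rpl30.

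Over the 74 canonical members, longer gene bodies went with a smaller ratio of the highest to the lowest library (Pearson r = -0.54 on log scales, Spearman rho = -0.48, across genes, which share the 15 libraries and are not independent replicates). Higher mean counts went with a smaller ratio as well (r = -0.49, rho = -0.42), and the 2 measures were not separated. The annotated exons cover a median of 59.2% of the span of canonical members (7.61% to 100%). In all, 57 small nucleolar RNA genes lie within the spans of 29 of them on the same strand, up to 5 in a single gene.

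Genes of the same machinery outside the rule were measured alongside. Between labels, 55.4% of all tested genes were higher in females and 53.0% in males. List values without single libraries were not taken for these genes. Of 74 tested mitochondrial ribosomal protein genes, 0 were called in any comparison. Between labels 12 were higher and 62 lower in females (median -0.08) and 48 higher and 26 lower in males (median 0.05). Mrpl38 had -0.38 ± 0.20 in females and, for the effect in females minus that in males, -0.61 ± 0.27 (adjusted p = 0.9999). Of 46 translation factor genes, 0 were called. Between labels 25 were higher and 21 lower in females (median 0.01) and 27 higher and 19 lower in males (median 0.04). Naca, a subunit of the complex at the nascent chain exit, had the smallest p between labels among them, with -0.39 ± 0.23 in females and 0.41 ± 0.21 in males. Eif2s3x, an X-linked initiation factor subunit known to escape X inactivation, was at 18.7, 21.0, 18.7 and 22.8 CPM in females labelled knockout, against 9.31, 12.2, 11.5 and 10.9 CPM in males labelled knockout. The groups did not overlap (0.88 ± 0.15, adjusted p = 0.0974), beside 1.26% of all tested genes above. Of 68 tested ribosome assembly genes, 0 were called. Between labels 31 were higher and 37 lower in females (median -0.03) and 32 higher and 36 lower in males (median -0.01). Outside the name rule, Fau, which encodes a small-subunit protein fused to a ubiquitin-like one, was at 1.23 to 6.41 CPM.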

How the data were processed

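RNA of 15 libraries was measured by rRNA-depleted, directional RNA-seq of sorted nuclei. Per the submitters' processing notes the authors used STAR 2.5.3a and featureCounts 1.5.0 with GRCm38 (mm10). The deposited values are raw counts per gene over whole gene bodies (gene length equals end minus start plus 1 in 100% of genes, per the file headers), without normalisation. The larger table holds 55536 genes and the smaller 16610.

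Counts were fitted in R 4.3.3 with edgeR 4.0.16: filterByExpr kept 17455 genes, libraries were scaled by TMM, and a quasi-likelihood fit of all 15 libraries took 1 mean for each group (11 residual degrees of freedom). The procedure was first tested on simulated counts, which enter no result. CPM use TMM library sizes. A floor of 3 counts equals 0.0219 to 0.117 CPM, which covers counting error alone. The log2 count ratio of Rpl3l to Rpl3 (0.5 added to each) was compared by a two-sided exact permutation test in Python (scipy 1.17.1), without pairing. DESeq2 1.42.0, limma 3.58.1 (voom), other scalings and filters, and left-out libraries were alternatives. Same-numbered libraries correlated by 0.169 to 0.699 between the male groups, 0.503 to 0.829 between the knockout-labelled groups and 0.179 to 0.842 between the wild-type-labelled groups, and were taken as pairs there. Between the female groups the values were -0.41 to 0.71, too mixed to take as pairs. The fit with the replicate block nonetheless covered all 5 comparisons. For the label in females it gave a members' median of -0.02, with 35 higher and 46 lower. Some differently numbered libraries correlated better, so pairing by number is not established. For replicate 2 of the male groups the best such value was 0.763, beside 0.169. For replicates 2 and 3 of the wild-type-labelled groups it was 0.593 and 0.567, beside 0.179 and 0.303. For replicates 1 and 4 of the knockout-labelled groups it was 0.519 and 0.748, beside 0.503 and 0.685.

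Members, lists and tests were chosen with earlier results of these data known. Named were Rpl3, Rpl3l, paralogues and non-ribosomal members, the 3 members with the smallest p per direction and comparison, those highest or lowest per kb or in range, and up to 3 genes per related list and comparison. Rpl4, Rpl8, Rpl29, Rps15a, Rps4x, Rpl36a, Rpl39, Eef1a1 and Fau were added after their values were seen.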

Additional observations from a re-analysis of the deposited data

Results flagged for a closer look

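Single libraries far from the other 3 of their group were looked for in 20 measures over the 3 groups of 4 libraries (60 tests of 1 group, of which chance flags about 1 in 20), and 8 stood out. In replicate 2 of the females labelled knockout, Rps20 was at 9.43 CPM beside 5.34 to 5.38 in the others, Rps18 at 7.73 beside 5.34 to 5.71, and Rpl37 at 8.71 beside 6.77 to 7.04. In replicate 2 of the males labelled knockout, Rpl26 was at 4.80 CPM beside 1.94 to 2.35, and the Rpl3l to Rpl3 count ratio was 5.46 beside 8.73 to 9.30. These 2 libraries also had the highest mitochondrial shares, 0.918% and 1.12%. Elsewhere, Rpl35a was at 9.46 CPM in replicate 3 of the males labelled wild type beside 6.02 to 6.36. Rps20 was at 4.52 CPM in replicate 4 of that group beside 5.64 to 5.72. Rps4l was at 0.233 CPM in replicate 4 of the females labelled knockout beside 0.717 to 0.768.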

How the results depend on the processing

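In every alternative fit 0 members were called. Over all tested genes DESeq2 called 3, 4, 1, 57 and 14 and limma-voom 1, 2, 0, 9 and 6 (label in females, in males, their difference, sexes under the knockout and the wild-type label), against 0, 2, 0, 4 and 0 with edgeR. With the replicate block edgeR called 13 genes between the sexes under the knockout label, and the members' medians were -0.02, 0.16, -0.18, -0.04 and 0.15. The block changed no call of a member. Among marker-poor libraries 8, 0, 11, 2 and 11 members had an edgeR unadjusted p below 0.05, in the same order. The share of all tested genes at that p was not taken there. Among marker-rich libraries the medians were 0.26, 0.17, 0.06, 0.04 and -0.03, and leaving out single libraries gave -0.22 to 0.06, 0.07 to 0.26, -0.39 to -0.07, -0.18 to 0.13 and 0.13 to 0.28. The Rpl3l to Rpl3 log2 ratio turned its sign when the 3 libraries holding other-sex reads were left out, to -0.069 between labels in males and 0.090 between the sexes under the wild-type label. Leaving out single libraries gave -0.43 to 0.085 between labels in females, -0.069 to 0.26 in males and, between the sexes, -0.28 to 0.24 with the wild-type label and -0.45 to -0.030 with the other. No adjusted p passed 0.05. Single genes, all without a call, turned sign as well. Among marker-poor libraries Rps20 between labels in females was -0.14, Rpl30 between the sexes under the wild-type label 0.021, and Rpl3 between the sexes under the knockout label -0.025 (-0.063 without the 3 libraries). Among marker-rich libraries Rpl30, Rpl22l1 and Rpl3l between labels in males were 0.078, 0.37 and -0.10, and Rpl3 in the difference of label effects was 0.027. Leaving out single libraries gave, between labels in females, -0.037 to 0.44 for Rps20, -0.049 to 0.12 for Rpl3 and -0.32 to 0.048 for Rpl3l. Between the sexes it gave -0.064 to 0.13 for Rpl3 under the knockout label and, under the wild-type label, -0.42 to 0.096 for Rpl30, -0.067 to 0.30 for Rpl3l, -0.085 to 0.024 for Rpl7l1 and -0.27 to 0.081 for Rps19bp1. The causes were not tested. Depth limits Rps4l and Rpl13a most, at means of 35.3 and 17.5 counts.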
